A study of Homo sapiens with 6 samples.

Results

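Amino acid synthesis and transport genes were examined in the RNA-Sequence data of MDA-MB-231 shBry and MDA-MB-231 shNC cells. The group was a list of 38 gene symbols for the synthesis of amino acids, serine and one-carbon metabolism, glutamine use and amino acid transporters. All 38 were found among the 54259 symbols of the count table, and 33 had enough reads to be tested. MDA-MB-231 cells are a human line established from breast cancer. The shBry cells carried a short hairpin RNA against the transcription factor brachyury, the shNC cells carried a control hairpin, and each group had 3 libraries. The text used here gives no drug or time, does not name the hairpin used in this line and does not say whether the 3 libraries came from separate cultures, so p-values measure the spread between these libraries, which may be technical. Effects of the hairpin and of the loss of brachyury cannot be told apart with 1 kind of shBry cell.

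Cells obtain amino acids by synthesis and by import. Serine is made from a glycolytic intermediate in consecutive steps by PHGDH, PSAT1 and PSPH, and its carbon enters the folate cycle, which runs with separate enzymes in mitochondria and in the cytosol. Asparagine, proline, arginine, cysteine and alanine have their own enzymes, and glutamate and glutamine supply nitrogen to many of them. Import runs through solute carriers, of which the SLC7A5 and SLC7A11 proteins work as heterodimers with the SLC3A2 protein. When amino acids are scarce or proteins misfold, the transcription factor ATF4 is known to raise many of these genes together, through composite elements shared with C/EBP factors.

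Brachyury, listed under its older symbol T, had 0 counts in each of the 6 libraries, so the knockdown could not be checked and a difference was not detectable at this depth. Between 19319411 and 22985371 reads were counted per library, and a count of 0 allows up to 0.131 to 0.155 CPM (read counts scaled to a common library size), counting error only. The shBry and shNC libraries separated on the first principal component of log2 CPM (75.7% of the variance). Libraries of 1 group differed by more than sampling noise: the chi-square divided by its degrees of freedom was 4.94 to 16.7. The 7 genes listed as expressed in MDA-MB-231, VIM and CD44 among them, had over 100 counts in every library. CDKN2A, which this line has lost, was at 0 throughout, and ESR1, PGR and CDH1 had at most 2 counts. Other genes listed as low in this line were counted: GATA3 had 201 to 313 reads, EPCAM 68 to 113 in shBry and 21 to 40 in shNC, and KRT19 7 to 11 in shBry and 23 to 37 in shNC. The 6 leukocyte markers had at most 3 counts and the 5 cardiomyocyte markers at most 7, although the deposited description calls the RNA pericardial. Of 4 lung markers, SFTPC, SFTPB and SCGB1A1 were at 0 and NKX2-1 was counted, so their summed level was 14.3 to 19.4 CPM in shBry and 32.8 to 38.3 CPM in shNC. The 4 mesothelial markers, mostly MSLN with WT1 at no more than 7 counts, summed to 44.4 to 48.7 CPM in shBry and 35.3 to 39.6 CPM in shNC. Another of them, CALB2, went the other way, with 21, 14 and 16 counts in shBry and 30, 29 and 222 in shNC, where replicate 3 stood apart. The part of these differences in the results was not tested.

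Most of the tested genes on this list were called higher in shBry cells. The list was chosen with earlier results of these data known, so its contrasts with all tested genes can follow from that choice. Further genes of amino acid metabolism, given below, were called higher in smaller shares. Of the 33 tested members, 21 were called higher and 1, SHMT1, was called lower. A gene was called at a Benjamini-Hochberg adjusted p below 0.05 in edgeR's quasi-likelihood test with a fold change above 1.5. Over all 15277 tested genes, 17.1% were called higher and 15.2% lower. The members' median log2 fold change was 0.92, against 0.03 for all tested genes. Positive values mean higher in shBry. Called higher with a fold change above 2 were 15 of the 33 tested members and 8.21% of all tested genes. At any fold change, 27 members had an adjusted p below 0.05 in edgeR, as did 53.3% of all tested genes. Among the 19 tested enzymes, 11 were called higher, and among the 14 tested transporters, 10. In 24 members all 3 shBry values lay above all 3 shNC values, and in 6 they lay below, where these shares were 30.6% and 28.9% over all tested genes. Together the 38 genes took 1.03% ± 0.0135 of all counts in shBry (SD, n = 3) and 0.458% ± 0.006 in shNC. In bulk RNA, a change in the number of cells that express a gene and a change of RNA per cell cannot be told apart. Only RNA was measured in these libraries, and amounts of protein, enzyme activity and transport were not.

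**Figure D1:**
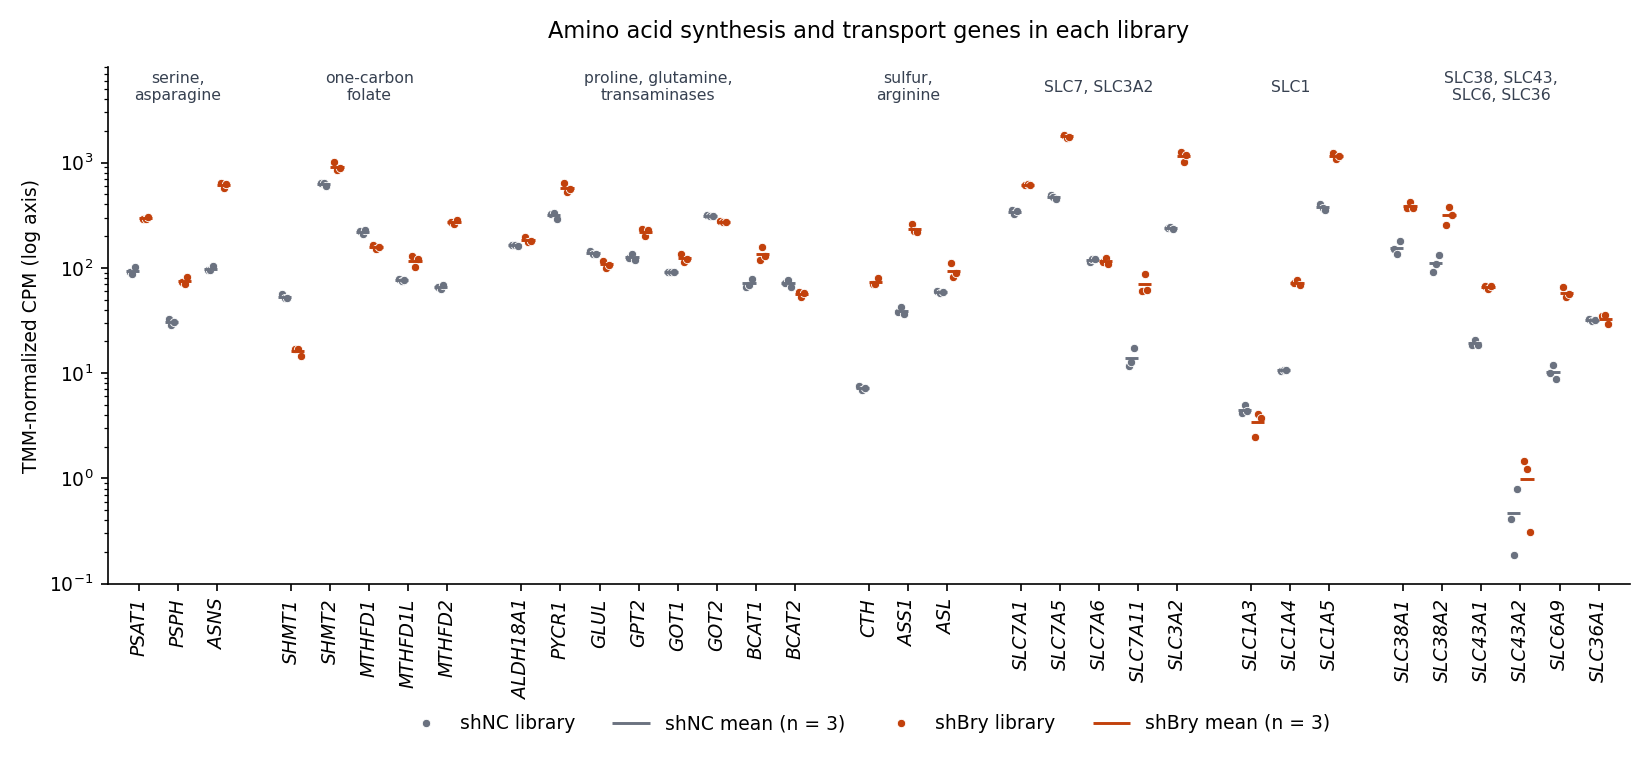
TMM-normalized CPM (log axis) of the 33 tested members in each library, grouped by role, with shNC libraries in grey and shBry libraries in orange. Points are libraries and bars are means of 3; the largest separation is that of CTH, from 7.23 to 73.9 CPM, and SHMT1 is the called gene whose shBry points lie below.

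The filter on low counts kept 33 members. Of these, 32 had at least 46 counts in every library, and SLC43A2 passed with between 4 and 29. The 5 members that were not tested, PHGDH, ALDH1L2, CBS, SLC7A8 and SLC38A5, had at most 13 counts in any library. PHGDH encodes the first enzyme of serine synthesis and differs widely between breast cancer lines. It had 0, 0 and 5 counts in shBry and 0, 0 and 1 in shNC, with no 50-base stretch of its transcripts shared with other genes, so RNA of the enzyme that opens the pathway was at or near 0 in both groups. CBS encodes the first enzyme of transsulfuration. It was at 0 in all 6 libraries, but 54.5% of the 50-base stretches in its transcripts also occur in its copy CBSL and other genes, and CBSL was at 0 too, so its level cannot be read from these counts. ALDH1L2, a mitochondrial folate enzyme, had 3, 7 and 1 counts in shBry and 4, 5 and 4 in shNC. The transporter genes SLC7A8 and SLC38A5 had 1 and 24 counts over shBry and 3 and 10 over shNC.

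RNA for asparagine synthetase and for the later steps of serine synthesis rose in shBry. ASNS encodes the enzyme that makes asparagine from aspartate and lies on the minus strand of chromosome 7 (GRCh38, 97852118 to 97872542). It had 642, 575 and 631 CPM in shBry replicates 1, 2 and 3 and 94.5, 94.4 and 104 CPM in shNC replicates 1, 2 and 3. The groups were far apart and each was tight, with a log2 fold change of 2.66 (SE, the standard error, 0.08, edgeR adjusted p = 1.5e-11). In GENCODE 29, 44.6% of the ASNS exon bases are also exons of AC079781.5, a gene the count table does not list. PSAT1, the aminotransferase of the second step of serine synthesis, had 289, 291 and 306 CPM in shBry and 92, 86.5 and 102 CPM in shNC, with a log2 fold change of 1.66 (SE 0.08, edgeR adjusted p = 1.9e-09). PSPH, the phosphatase of the last step, had 73.9, 69.8 and 81.7 CPM in shBry and 33, 28.6 and 30.5 CPM in shNC. Its log2 fold change was 1.29 (SE 0.10, edgeR adjusted p = 9.7e-08), and no value of either group overlapped for these 3 genes. Thus RNA for the second and last steps of serine synthesis rose while PHGDH stayed under the limit of the test.

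The start of ASNS is shown because it holds the letters of a composite element of ATF4 and C/EBP factors. The 250 bases before a RefSeq start, at chr7:97872409-97872658 on the minus strand of GRCh38.p14, contain TGATGNAA once, in capitals, with its first base 68 bases before the start.
ASNS upstream: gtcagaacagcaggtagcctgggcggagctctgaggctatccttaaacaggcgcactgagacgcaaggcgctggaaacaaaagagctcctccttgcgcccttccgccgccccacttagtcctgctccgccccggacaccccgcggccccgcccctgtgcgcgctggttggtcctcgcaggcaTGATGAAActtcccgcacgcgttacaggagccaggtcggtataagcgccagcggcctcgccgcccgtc

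The same letters were searched on both strands from 250 bases before to 50 after each RefSeq start. Of the 38 members, 31 had a sequence, and 10 of these (32.3%) held TGATGNAA at a start, against 4.46% of all 27305 genes with a sequence. Members have more listed starts per gene than most genes: counted per start, 12 of 58 (20.7%) held it, against 3.62% of 35116 starts, and overlapping starts share sites. The motif was present in 8 of the 17 members called higher that had a sequence and in 2 of the other 14, some of which were not tested. In the bases before the start alone it was present in 6 members (19.4%, against 3.89% of all genes), 4 of the 17 and 2 of the 14. Each site is given as 30 bases read along the strand that carries the motif, with the motif in capitals.
ASNS chr7:97872458-97872487, minus: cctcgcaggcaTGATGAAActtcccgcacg
BCAT1 chr12:24949131-24949160, minus: tgtcttcctgcTGATGCAAtccgctaggtc
MTHFD1L chr6:150866346-150866375, plus: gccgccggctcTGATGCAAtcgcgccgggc
SLC1A4 chr2:64989381-64989410, minus: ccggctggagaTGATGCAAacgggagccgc
SLC1A5 chr19:46784893-46784922, minus: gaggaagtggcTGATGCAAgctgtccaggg
SLC3A2 chr11:62881719-62881748, minus: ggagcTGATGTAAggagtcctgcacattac
SLC7A1 chr13:29595663-29595692, minus: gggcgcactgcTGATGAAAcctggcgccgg
SLC38A1 chr12:46266502-46266531, minus: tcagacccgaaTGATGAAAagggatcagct
GOT1 chr10:99430804-99430833, plus: gctgccgagaaTGATGCAAccaatgcaatt
SLC1A3 chr5:36596357-36596386, plus: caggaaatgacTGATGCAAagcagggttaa
The first 8 genes were called higher, and GOT1 and SLC1A3 were not called. None of the 10 sites overlapped a site of the other searched motifs, the E-box CACGTG and the NRF2 element TGACNNNGC. The E-box was held by 11 of the 31 members, against 8.77% of all genes, but by 6 of the 17 called higher and 5 of the other 14. Of these 5, SLC7A8 and SLC38A5 were not tested and so could not be called. The NRF2 element was held by 9 members, against 16.1% of all genes, 5 of them called higher and CBS not tested. A match is a description of the letters and not a measured binding site. Whether ATF4 acts on these genes here was not tested. Members were chosen with earlier results of these data known, and ATF4 is known to raise many of them. The share with TGATGNAA can therefore follow from that choice.

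Of the 5 tested folate enzymes, the mitochondrial MTHFD2 and MTHFD1L were called higher, the cytosolic SHMT1 was called lower, and SHMT2 and MTHFD1 were not called. MTHFD2, a mitochondrial dehydrogenase and cyclohydrolase on chromosome 2 from 74198562 to 74217565, had 273, 262 and 283 CPM in shBry and 65.4, 63.4 and 68.2 CPM in shNC. Its log2 fold change was 2.05 (SE 0.08, edgeR adjusted p = 1e-10), and 33.2% of its exon bases overlap other genes, of which SLC4A5 had 120 counts in all of shBry. SHMT1, the cytosolic serine hydroxymethyltransferase on chromosome 17 from 18327860 to 18363563, went the other way. It had 17, 17.1 and 14.6 CPM in shBry and 56.5, 52.1 and 51.5 CPM in shNC, a log2 fold change of -1.72 (SE 0.11, edgeR adjusted p = 1.3e-08).
SHMT2, its mitochondrial counterpart, had 1014, 840 and 882 CPM in shBry and 633, 639 and 601 CPM in shNC. These groups did not overlap, but the log2 fold change of 0.55 (adjusted p = 9.3e-05, edgeR) was under the fold change limit, and it passed the limit at 0.59 without shBry replicate 2. MTHFD1L, which makes formate in mitochondria, had 129, 102 and 120 CPM in shBry and 78.9, 74.5 and 76.1 CPM in shNC. Its log2 fold change of 0.61 (adjusted p = 8.9e-05, edgeR) was just over the limit and lay between 0.53 and 0.69 with each library left out, so that it was not called without shBry replicate 1, shNC replicate 2 or shNC replicate 3. MTHFD1, the cytosolic enzyme of these steps, had 163, 151 and 158 CPM in shBry and 223, 209 and 229 CPM in shNC. Its log2 fold change of -0.49 (adjusted p = 0.00012, edgeR) was under the limit.

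Ratios of partner genes within a library do not depend on the scaling of libraries. Counts were not corrected for gene length here, so only the change of a ratio between groups is read. The ratio of MTHFD2 to MTHFD1 counts was 1.68, 1.74 and 1.79 in shBry and 0.293, 0.304 and 0.297 in shNC, a 5.82-fold change. The ratio of SHMT2 to SHMT1 was 59.5, 49 and 60.2 in shBry and 11.2, 12.3 and 11.7 in shNC, a 4.79-fold change, and that of MTHFD1L to MTHFD1 changed 2.13-fold. In all 3 pairs the mitochondrial gene gained on the cytosolic gene in each shBry library. The pairs of MTHFD2 and of MTHFD1L share MTHFD1 as the cytosolic gene, so they are not independent. Amino acid transaminases with the same compartments went the opposite way: the log2 ratio changed by -0.60 (standard error 0.06) for GOT2 to GOT1 and by -1.25 (standard error 0.22) for BCAT2 to BCAT1. Of 15 listed pairs, 12 could be compared, and 9 did not overlap between groups. Taken singly, 59.5% of all tested genes did not overlap, and no such share was worked out for ratios of other genes. With 3 libraries against 3, the exact two-sided permutation test cannot go below p = 0.1, which all 9 reached (adjusted p = 0.133 over 12 pairs).

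**Figure D2:**
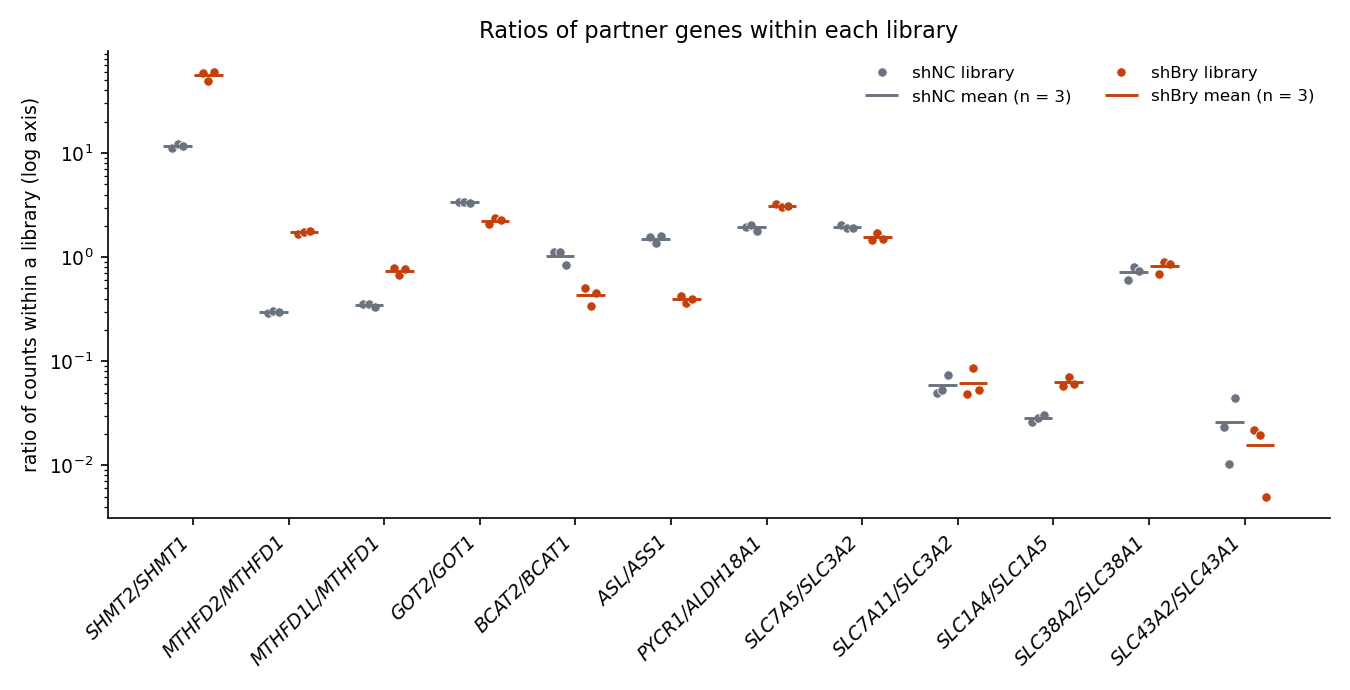
Ratio of the counts of 2 partner genes within each library (log axis), with shNC libraries in grey and shBry libraries in orange, points for libraries and bars for means of 3. The 3 folate pairs on the left have shBry means of 56.2, 1.73 and 0.742 above shNC means of 11.7, 0.298 and 0.348, and SLC7A11/SLC3A2, SLC38A2/SLC38A1 and SLC43A2/SLC43A1 overlap.

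The 3 tested enzymes of cysteine and arginine synthesis were called higher, and CTH had the largest fold change of the tested members. CTH encodes cystathionine gamma-lyase, the enzyme that releases cysteine at the end of transsulfuration, and lies on chromosome 1 from 70411218 to 70439851. It had 70.2, 70.9 and 80.6 CPM in shBry and 7.51, 6.9 and 7.26 CPM in shNC, a 10.2-fold rise (log2 fold change 3.35, SE 0.11, edgeR adjusted p = 2.1e-11). ASS1 encodes argininosuccinate synthetase, which starts the making of arginine from citrulline, and lies on chromosome 9 from 130444929 to 130501274. It had 258, 224 and 221 CPM in shBry and 38.2, 42.2 and 36.8 CPM in shNC, a 6-fold rise (log2 fold change 2.59, SE 0.09, edgeR adjusted p = 5.2e-11). ASL, the lyase that follows ASS1, rose less, with a log2 fold change of 0.67 (SE 0.11, edgeR adjusted p = 0.00011), and without shBry replicate 1 it was 0.53 and not called. The ratio of ASL to ASS1 counts fell from 1.5 ± 0.122 in shNC to 0.396 ± 0.0314 in shBry (SD, n = 3). Neither ASS1 nor CTH held TGATGNAA at a start in the sequences searched.

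RNA for enzymes of proline, glutamate and branched-chain amino acids changed by less than 2-fold. BCAT1, the cytosolic branched-chain transaminase, rose by a log2 fold change of 0.92, PYCR1, the last step of proline synthesis, by 0.87, and GPT2, the mitochondrial alanine transaminase, by 0.80, with adjusted p between 2.3e-06 and 7.6e-06 in edgeR. ALDH18A1, the first step of proline synthesis, was not called (log2 fold change 0.17, 95% interval 0.00 to 0.33, adjusted p = 0.085, edgeR). The ratio of PYCR1 to ALDH18A1 went from 1.93 ± 0.115 to 3.13 ± 0.121 without overlap. GLUL, which makes glutamine, BCAT2 and GOT1 had adjusted p between 0.00072 and 0.0063 in edgeR, but their log2 fold changes of -0.36, -0.34 and 0.43 were under the limit. GOT2, the mitochondrial aspartate transaminase, had -0.18 (adjusted p = 0.053, edgeR). In PYCR1, 29.7% of exon bases overlap MYADML2, listed at 0 counts, and AC145207.4, which is not listed.

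RNA for both subunits of the main heterodimeric importers rose. SLC3A2 encodes the shared heavy chain and lies on chromosome 11 from 62856102 to 62888875. It had 1261, 1013 and 1167 CPM in shBry and 241, 245 and 232 CPM in shNC, a log2 fold change of 2.26 (SE 0.09, edgeR adjusted p = 1.7e-10). SLC7A5, the light chain for large neutral amino acids such as leucine, lies on chromosome 16 from 87830023 to 87869488. It had 1840, 1727 and 1736 CPM in shBry and 493, 469 and 447 CPM in shNC, a log2 fold change of 1.91 (SE 0.08, edgeR adjusted p = 2e-10). SLC7A5 and SLC3A2 together took 0.289% ± 0.00805 of counts in shBry and 0.0713% ± 0.00249 in shNC.
SLC7A11, the light chain that imports cystine in exchange for glutamate, lies on chromosome 4 from 138164097 to 138242349. It had 60.6, 86.7 and 62.1 CPM in shBry and 11.8, 12.8 and 17.3 CPM in shNC, with the widest spread among the called members but no overlap (log2 fold change 2.32, SE 0.16, edgeR adjusted p = 4.3e-08). The ratio of SLC7A11 to SLC3A2 overlapped between groups (log2 change 0.06, standard error 0.32, exact permutation p = 0.8), and that of SLC7A5 to SLC3A2 fell from 1.96 ± 0.0741 to 1.55 ± 0.134 without overlap. SLC7A1, the importer of arginine and lysine, rose by a log2 fold change of 0.85 (SE 0.07, edgeR adjusted p = 4.1e-07). SLC7A6, another partner of SLC3A2, was not called, with a log2 fold change of -0.04 (95% interval -0.21 to 0.13, adjusted p = 0.69, edgeR). Exons of other genes, SLC7A6OS among them, overlap 55.6% of its exon bases.

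RNA for neutral amino acid carriers of other families rose as well. SLC1A4, which exchanges alanine, serine and cysteine, had 72.1, 76 and 69.4 CPM in shBry and 10.5, 10.6 and 10.8 CPM in shNC, a log2 fold change of 2.77 (SE 0.10, edgeR adjusted p = 4.7e-11). SLC1A5, the glutamine exchanger, had 1244, 1074 and 1146 CPM in shBry and 403, 373 and 355 CPM in shNC, a log2 fold change of 1.61 (SE 0.09, edgeR adjusted p = 2.4e-09). Other genes overlap 23.8% of SLC1A5 exon bases. SLC1A3, a glutamate carrier, was low in both groups and not called, with a log2 fold change of -0.38 (95% interval -0.84 to 0.08, adjusted p = 0.15, edgeR).
SLC6A9, a glycine carrier, had 65.1, 52.9 and 56.7 CPM in shBry and 9.99, 11.9 and 8.76 CPM in shNC, a log2 fold change of 2.51 (SE 0.13, edgeR adjusted p = 2.2e-09). SLC43A1, a carrier of large neutral amino acids, had 67.4, 63.2 and 66.5 CPM in shBry and 18.7, 20.8 and 18.5 CPM in shNC, a log2 fold change of 1.76 (SE 0.10, edgeR adjusted p = 3.7e-09). Both carriers were low in shNC and rose in every shBry library. SLC38A2, a sodium-coupled glutamine and alanine carrier, had 254, 380 and 319 CPM in shBry and 90.8, 108 and 132 CPM in shNC, a log2 fold change of 1.53 (SE 0.14, edgeR adjusted p = 8.9e-07). Its paralog SLC38A1 had 367, 426 and 368 CPM in shBry and 150, 135 and 180 CPM in shNC, a log2 fold change of 1.32 (SE 0.11, edgeR adjusted p = 1.5e-07). The 2 paralogs rose by amounts that were not told apart, since their ratio overlapped between groups (log2 change 0.20, standard error 0.16, exact permutation p = 0.3). SLC36A1, a lysosomal carrier, was not called (log2 fold change 0.05, 95% interval -0.18 to 0.28, adjusted p = 0.73, edgeR). SLC43A2 was not called either (log2 fold change 1.08, 95% interval -0.13 to 2.28, adjusted p = 0.12, edgeR), and its call rests on 1 library: without shBry replicate 3 the log2 fold change was 1.51 and it was called.

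**Figure D3:**
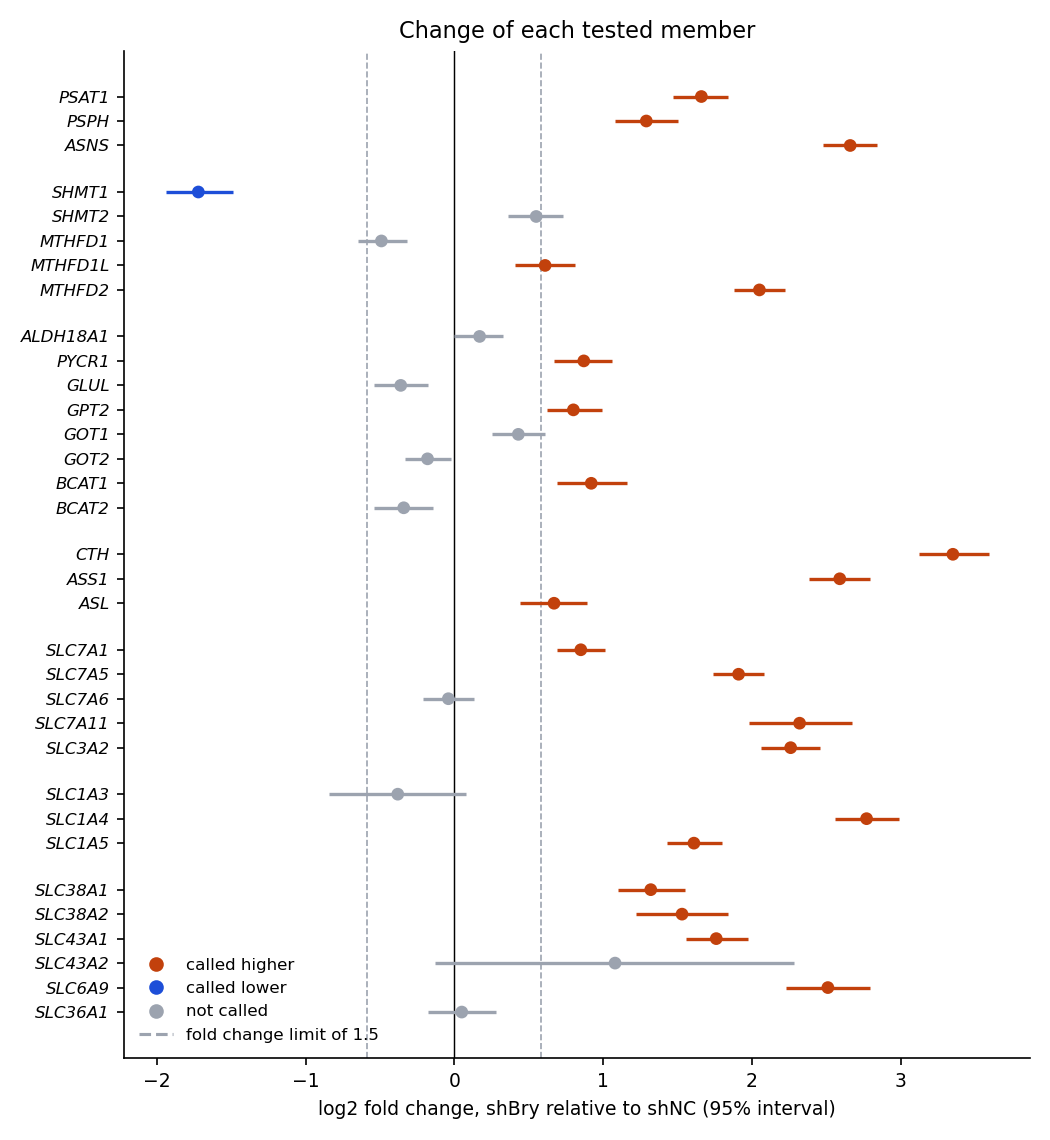
Log2 fold change of shBry relative to shNC for the 33 tested members, with 95% intervals from edgeR, in orange where called higher, blue where called lower and grey where not called. Dashed lines mark a fold change of 1.5. CTH lies farthest right at 3.35 and SHMT1 farthest left at -1.72. The intervals of MTHFD1L and ASL, which were called, cross the right line, as do those of SHMT2, GOT1 and SLC43A2, which were not. Those of MTHFD1 and SLC1A3, not called, cross the left line.

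Levels of different genes were compared per kilobase of exon (RPKM). The length was that of all exons annotated in GENCODE 29, merged over the transcripts of a gene. It can exceed the length of the RNA in these cells, so the order of genes is approximate. In shNC, the most abundant members were SHMT2 with 129 ± 4.16 RPKM (SD, n = 3), SLC1A5 with 113 ± 7.36 and PYCR1 with 109 ± 7.92, followed by SLC7A5 with 99 ± 4.93. SLC1A5 and PYCR1 differed by less than their spread. In shBry, SLC7A5 with 373 ± 13.3 RPKM and SLC1A5 with 346 ± 25.6 stood first, followed by SLC3A2 with 222 ± 24.1, PYCR1 with 199 ± 19.7 and SHMT2 with 189 ± 18.8. In that order, PYCR1 differed from SLC3A2 and from SHMT2 by less than the larger SD of each pair. By this measure the highest level of the group was that of a folate enzyme in shNC and of importers in shBry, and other lengths could change the order. The carriers SLC6A9, SLC1A4 and SLC7A11 had between 1.45 and 1.98 RPKM in shNC, so that large fold changes there started from low levels, and they had between 7.24 and 11.3 RPKM in shBry.

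Other genes of amino acid metabolism, taken from 3 lists written by hand, were called higher in smaller shares than the members. These lists hold genes outside the member list, and both were chosen with earlier results of these data known. The contrast can therefore follow from that choice. Over all tested genes, 17.1% were called higher and 15.2% lower. Among 39 tested further enzymes, 3 were called higher (7.69%) and 6 lower, with a median log2 fold change of 0.01. Those called with the smallest adjusted p included TYMS (-1.29), which makes thymidylate, NAGS (1.23), which makes an activator of the urea cycle, MTRR (0.67), a reactivator of methionine synthase and SFXN2 (-1.03), a mitochondrial carrier of the sideroflexin family. In TYMS, 46.6% of exon bases overlap other genes. Among 18 tested further transporters, 5 were called higher (27.8%) and 4 lower. The leading ones were SLC25A22 (1.26), a mitochondrial glutamate carrier, SLC1A7 (1.56) and SLC1A1 (-2.17), glutamate carriers of the cell surface, SLC7A2 (1.03), a carrier of cationic amino acids, and SLC25A32 (0.75), the mitochondrial folate carrier, of whose exon bases 80.8% overlap other genes. Values in brackets are log2 fold changes, and the adjusted p of these genes lay between 1.4e-08 and 4e-05 in edgeR.
Among 28 tested genes of amino acid sensing and the ATF4 response, 12 were called higher (42.9%) and 3 lower. Over all tested genes these shares were 17.1% and 15.2%. ATF4 itself had 663 ± 74 CPM in shBry and 431 ± 10.4 CPM in shNC (SD, n = 3). Its log2 fold change was 0.62 (SE 0.09, edgeR adjusted p = 4.2e-05), close to the fold change limit, and it was not called without shBry replicate 1 (0.56), without shBry replicate 3 (0.58) or with upper-quartile scaling (0.58). The genes with the smallest adjusted p were CHAC1 (3.69), which degrades glutathione, the transcription factors ATF3 (3.05) and CEBPG (1.99), TRIB3 (2.22), a feedback inhibitor of ATF4, and SESN2 (2.16), a leucine sensor.

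**Figure D4:**
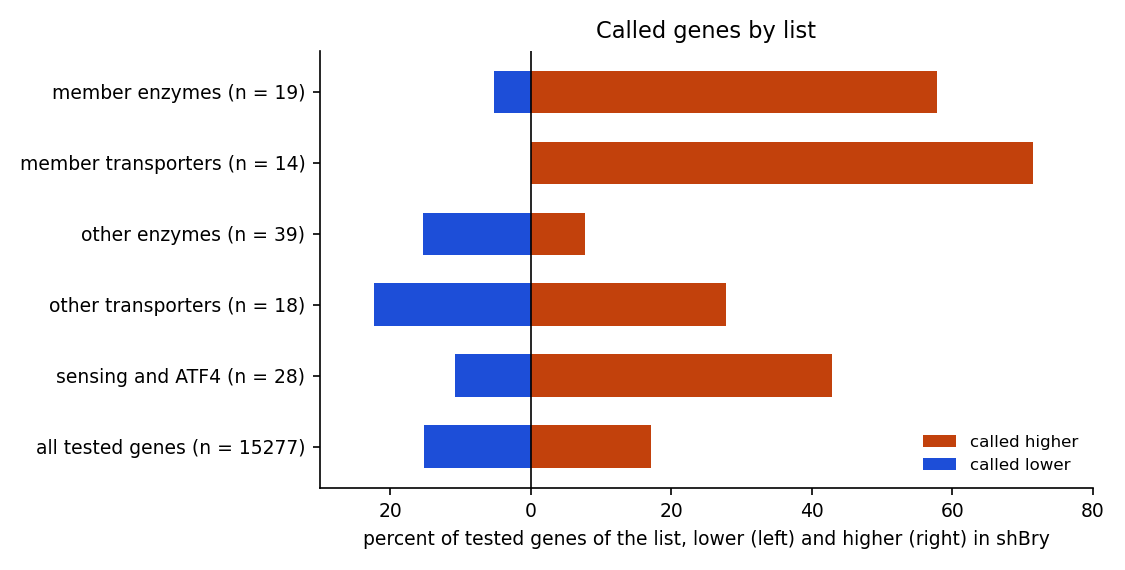
Percent of the tested genes of each list called lower (blue, to the left) and higher (orange, to the right) in shBry, with the number tested beside each name. The members' bars to the right reach 57.9% for enzymes and 71.4% for transporters. Those of the further lists reach 42.9% for sensing and ATF4, 7.69% for enzymes and 27.8% for transporters, and all tested genes 17.1%. Members and lists were chosen with earlier results of these data known, so differences between them can follow from that choice.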

How the data were processed

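Sequenced RNA came from 3 shBry and 3 shNC libraries of the MDA-MB-231 line. The authors deposited raw counts, whole numbers of reads per gene symbol, without normalization. The submitters' processing notes name HISAT2 2.0.4, HTSeq and GRCh38. Neither annotation nor strand setting is given in the sources used here, so it is not known how reads in overlapping exons were counted. Such reads may be missing from a gene or come from its neighbour. Library totals lay between 19319411 and 22985371.

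Low genes were removed by filterByExpr at a minimum count of 10. Libraries were scaled by TMM, and groups were compared in edgeR 4.0.16 (R 4.3.3) by its quasi-likelihood test, with Benjamini-Hochberg adjustment over 15277 genes. The paper gives p < 0.05 and a fold change above 1.5 but no tool. Standard errors are the log2 fold change over the square root of F. Partner ratios (0.5 added to counts) were tested by exact permutation. The test was tried on simulated counts first. All 38 members are accounted for. Values per library are given for the serine, asparagine and folate members and for called members with a log2 fold change of at least 1. Of each further list, the 5 called genes with the smallest adjusted p are named, with ATF4, except for an item that is not reported here. Members and lists were chosen with earlier results of these data known.

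Locations, lengths and overlaps are from GENCODE 29, matched by symbol, and start sequences from RefSeq on GRCh38.p14. Alternatives were other scalings, DESeq2 1.42.0, limma-voom (limma 3.58.1), other filters and limits, the replicate number as a block and each library left out.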

Additional observations from a re-analysis of the deposited data

How the results depend on the processing

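Of the 21 members called higher, 15 were called higher under all 16 alternatives and 19 with each library left out in turn. The number called higher was 20 with upper-quartile scaling and without an expression filter, 15 at a fold change above 2, 23 without a fold change limit, and between 19 and 22 with a library left out. Without a fold change limit, 4 members were called lower, 57 further pathway genes in place of 33, and 8139 of all genes, against 2297 with a fold change above 2 and 4945 with 1.5. With a library left out, between 4587 and 5025 genes were called, and the members' median log2 fold change lay between 0.86 and 0.98. Same-numbered libraries deviated from their group means with correlations of 0.18, -0.08 and -0.03, and other pairs across groups with -0.22 to 0.23. Deviations within a group offset each other, so these correlations cannot settle whether the numbers pair the libraries. With the replicate block, 21 members were called higher, 1 lower and 4914 genes in all. Reversals concerned SLC36A1, between -0.02 (without shBry replicate 2) and 0.13 with a library left out, and the ratio of SLC7A11 to SLC3A2, between -0.19 and 0.25 with a library left out. The cause of these shifts was not tested. DESeq2 called the same number of members, 21 higher and 1 lower. The 5 untested members had at most 13 counts in any library, where a difference was not detectable.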

Other observations

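Libraries of 1 group were not alike for every carrier. Among the called members, SLC7A11, SLC38A2, ASL and BCAT1 varied most within shBry, with coefficients of variation of 21.1%, 19.8%, 15.9% and 14.8%, where the median over tested members was 8.29%. SLC7A11, SLC38A2, SLC38A1 and BCAT1 were each highest in shBry replicate 2, while 19 of the 33 tested members were lowest in that library. For ASL, shBry replicate 1 was the highest with 110 CPM, against 81.3 and 88.4 CPM in the others. In shNC, SLC7A11, SLC38A1, SLC38A2 and BCAT1 were each highest in replicate 3, with 17.3, 180, 132 and 78.7 CPM. These 4 genes were picked after their values were seen.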
